A study of Mus musculus with 4 samples.

Results

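Tight junctions seal the gap between neighbouring epithelial cells. Claudins are the membrane proteins that form their strands and set which ions pass, occludin sits beside them, and the junctional adhesion molecule encoded by F11r binds its like on the facing cell. Inside the cell the scaffold proteins ZO-1 and ZO-3, encoded by Tjp1 and Tjp3, bind claudin tails and tie the strands to actin. By the time the primitive streak forms, the epiblast is an epithelium, and its cells lose such junctions when they become mesoderm and pass through the streak.

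The genes described are 9 of the 51826 in the table, taken by gene name: the claudins Cldn3, Cldn4, Cldn6, Cldn7 and Cldn9, then Ocln, F11r, Tjp1 and Tjp3. The study compared 2 libraries of mouse embryonic stem cells in which the pseudokinase gene Stk40 was deleted (Stk40-/-) with 2 libraries of wild-type cells, all of C57BL/6 background and collected at day 3 of differentiation towards mesoderm. Both genotypes were freed of fibroblast feeders by 1 passage on gelatin, then received 10 ng/ml of the growth factor BMP4 over 2 days, followed by 1 day of 1 uM CHIR99021, which inhibits the kinase GSK3, in 0.5% DMSO. Values are TPM, a relative measure of transcript abundance in which every library has the same total and long transcripts count no more than short ones, so levels can be compared between genes. The labels name neither the number of clones per genotype nor separate cultures, so the p-values reflect no more than the spread among these 4 samples, which may be technical, and genotype and line cannot be told apart. Reads of 100 or 150 bases were used without a statement of which library had which, so read length and genotype cannot be told apart either. Stk40 itself had 3.54 and 3.17 TPM in the Stk40-/- libraries, against 28.9 and 39.9 TPM in the wild-type libraries. Between 21950 and 22803 genes were above 0 per library. Sequencing depth is unknown from TPM, so no counting interval is given.

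Claudin genes are related in sequence, which bears on how reads are divided among them, so the closest pair comes first. Cldn6 and Cldn9 lie tail to tail on GRCm38 chromosome 17 with 137 bases between them (Cldn6 from 23679249 to 23682446, Cldn9 from 23682584 to 23684026). Their coding sequences, 657 and 651 bases long, were identical at 75.9% of aligned bases, the highest of the 10 claudin pairs. Coding bases 61 to 180 are shown for both, set side by side without gaps, with the 10 bases that differ in capitals.
Cldn6: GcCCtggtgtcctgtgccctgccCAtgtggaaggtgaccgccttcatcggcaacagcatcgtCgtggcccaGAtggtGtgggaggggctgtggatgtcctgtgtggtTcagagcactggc
Cldn9: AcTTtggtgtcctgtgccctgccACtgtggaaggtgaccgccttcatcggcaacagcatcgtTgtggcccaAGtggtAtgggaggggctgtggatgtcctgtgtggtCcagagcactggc
Cldn4 (134945119 to 134946934) and Cldn3 (134986214 to 134987472) are neighbours on chromosome 5, 39279 bases apart with 0 annotated genes between them, and their coding sequences were identical at 73.0%. The other genes lie apart, F11r on chromosome 1 (171437535 to 171464603), Tjp1 on chromosome 7 (65296165 to 65527781), Tjp3 on chromosome 10 (81273207 to 81291581), Cldn7 on chromosome 11 (69964779 to 69967885) and Ocln on chromosome 13 (100496507 to 100552718). The identifiers in the table are ENSMUSG00000070473.4 for Cldn3, ENSMUSG00000047501.3 for Cldn4, ENSMUSG00000023906.2 for Cldn6, ENSMUSG00000018569.12 for Cldn7, ENSMUSG00000066720.6 for Cldn9, ENSMUSG00000021638.12 for Ocln, ENSMUSG00000038235.4 for F11r, ENSMUSG00000030516.14 for Tjp1 and ENSMUSG00000034917.8 for Tjp3. Runs of 31 bases shared with transcripts of any other gene made up between 0% (Tjp1) and 1.22% (Cldn3) of the runs in the GENCODE transcripts of each gene, and 0.407% in Cldn6 and 0.495% in Cldn9. Of the genes that overlap them on the chromosome, the only one above 2 TPM was Apba3, which shares 40 bases with Tjp3 on the opposite strand.

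All 9 genes were above 0 in every library, at mean levels from 1.35 to 231 TPM. Cldn6, Cldn4 and Cldn7 were the most abundant, Tjp1, F11r, Cldn3, Ocln and Tjp3 followed in that order, and Cldn9 was near the limit of what was tested. Over the 4 libraries Cldn6 had a mean of 231 TPM, above 96.3% of the 15739 tested genes, and Cldn9 a mean of 1.35 TPM, above 6.49% of them. The ranges of neighbours in this order overlapped for Cldn6 with Cldn4 and for Ocln with Tjp3, and those 2 pairs are therefore not ordered by these data.

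**Figure D1:**
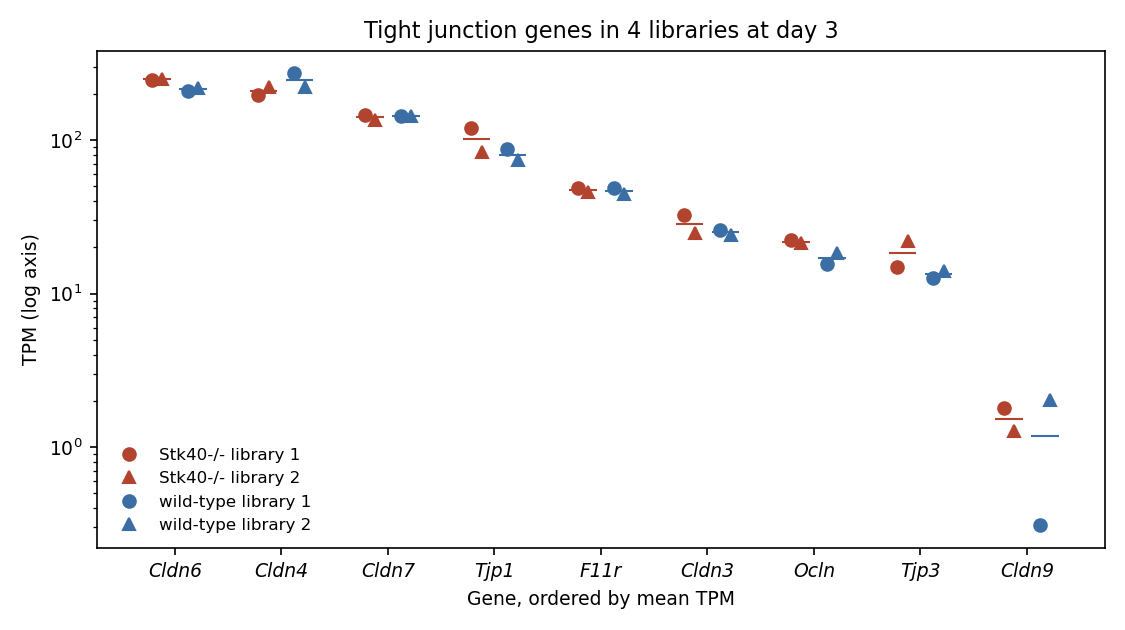
TPM on a log axis for the 9 genes in each library, with circles for library 1, triangles for library 2 and a short line at each group mean. Points of Cldn6 and Cldn4 share a range, as do those of Ocln and Tjp3, and the widest spread within a group is that of Cldn9, whose wild-type libraries are at 0.310 and 2.04 TPM.

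In limma, on log2(TPM + 1) with Benjamini-Hochberg adjustment over all tested genes, 0 of the 9 genes were called higher and 0 lower in Stk40-/- cells at an adjusted p under 0.05, and over all tested genes the share called was 0% higher and 0% lower (smallest adjusted p = 0.114). At an unadjusted p under 0.05, 1 of the 9 was higher (Cldn6) and 0 were lower, beside 6.48% and 4.51% of tested genes. Cldn6, which passed at an unadjusted p, did not with library sizes rescaled by a trimmed mean of log ratios, without the intensity trend, or without either Stk40-/- library or wild-type library 1. In 3 of the 9, Cldn6, Ocln and Tjp3, the Stk40-/- values were both above the higher wild-type value, which held for 27.5% of tested genes, and in 0 both were below the lower one, which held for 16.6%. Log2 fold changes were positive for 7 of the 9 and for 58.6% of tested genes, with medians of 0.22 and 0.065, and the same rescaling turned F11r negative, leaving 6. Without Stk40-/- library 1 the median of the 9 was 0.066, beside 0.046 for all tested genes, and 5 of the 9 were positive. The 95% intervals of 7 genes lay within a 2-fold change either way, and those of Cldn9 and Tjp3 did not. In 7 of the 9, all but Cldn6 and Ocln, libraries of one genotype differed by more than the genotypes did.

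**Figure D2:**
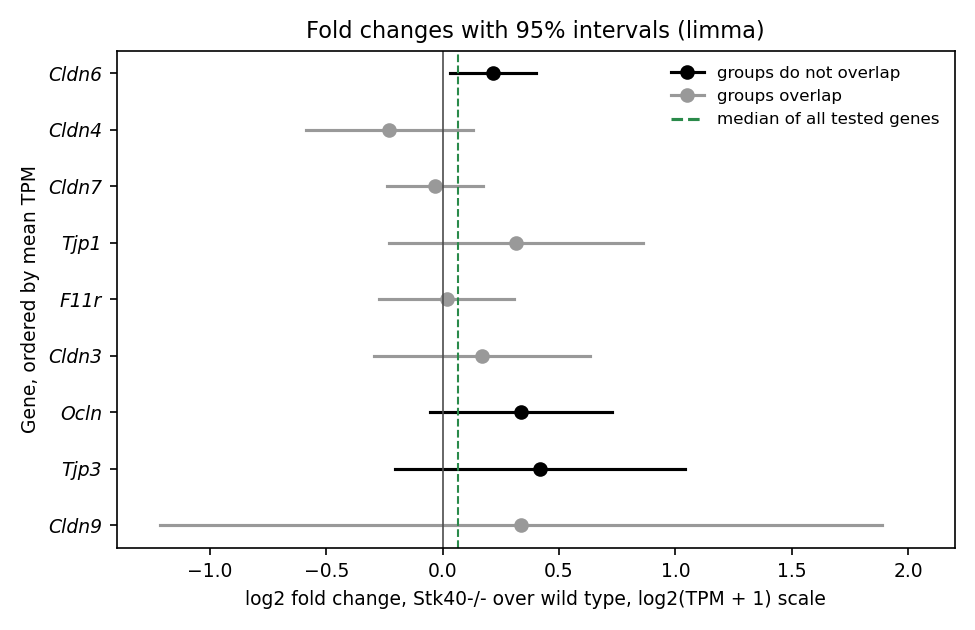
Log2 fold change of Stk40-/- over wild type for each gene with its 95% interval from limma, in black where the groups did not overlap and in grey where they did, with the median of all tested genes as a dashed line. The interval of Cldn6, from 0.032 to 0.40, is the only one that leaves out 0.

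Cldn6, a claudin of early embryonic epithelia and pluripotent stem cells, had the smallest standard error of the 9. It had 247.6 and 248.0 TPM in the Stk40-/- libraries and 207 and 220 TPM in the wild-type libraries. The Stk40-/- libraries were nearly equal and both lay above the wild-type ones. The log2 fold change was 0.22 (SE 0.068, limma adjusted p = 0.428), a difference of 16.2% between the means, and it stayed between 0.15 and 0.26 over the alternatives run. Its neighbour Cldn9, best known from the inner ear, had 1.80 and 1.27 TPM in the Stk40-/- libraries and 0.310 and 2.04 TPM in the wild-type libraries. The wild-type libraries lay on either side of the Stk40-/- ones, so no direction is given (log2 fold change 0.34, SE 0.57, limma adjusted p = 0.841). Under pseudocounts of 0.1 and 0.01 the value was 0.78 and 0.91, and with 1 library left out it ran from -0.27 to 0.94.

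Cldn4, a claudin of embryonic and adult tight epithelia, had the most negative fold change of the 9. It had 197 and 221 TPM in the Stk40-/- libraries, against 272 and 219.9 TPM in the wild-type libraries. Wild-type library 1 stood above the other 3, and the groups overlapped. The log2 fold change of -0.23 (SE 0.13, limma adjusted p = 0.589) was -0.15 when Stk40-/- library 1 was left out, -0.076 when wild-type library 1 was left out and -0.38 when wild-type library 2 was. The neighbouring Cldn3, which like Cldn4 is a receptor for a Clostridium toxin, had 32.3 and 24.7 TPM in the Stk40-/- libraries and 26.0 and 24.1 TPM in the wild-type libraries. Stk40-/- library 1 alone lay above the rest (log2 fold change 0.17, SE 0.17, limma adjusted p = 0.711), and without it the value was -0.019. Cldn7, whose protein binds EpCAM in the lateral membrane, had 145 and 135 TPM in the Stk40-/- libraries and 143.5 and 143.0 TPM in the wild-type libraries. These groups overlapped, and the interval of its fold change on the TPM + 1 scale ran from 0.847 to 1.13 (limma adjusted p = 0.892).

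The summed TPM of the 25 protein-coding claudin genes of the table was 698 and 700.4 in the Stk40-/- libraries and 716 and 667 in the wild-type libraries, so the total differed less between genotypes than between the wild-type libraries. Cldn4, Cldn6 and Cldn7 together made up 84.4% and 86.3% of it in the Stk40-/- libraries and 86.9% and 87.3% in the wild-type libraries. Within it the ratio of Cldn6 to Cldn4 was 1.26 and 1.12 in the Stk40-/- libraries, against 0.762 and 0.999 in the wild-type libraries. Such a ratio does not change with library scaling, and its groups did not overlap. It was chosen after the values were seen, and an exact permutation test of 2 against 2 libraries cannot give a p below 0.333. The ratio of Cldn6 to Cldn7 was 1.71 and 1.83 in the Stk40-/- libraries and 1.44 and 1.54 in the wild-type libraries, again without overlap, whereas that of Cldn4 to Cldn7 overlapped, at 1.36 and 1.63 in the Stk40-/- libraries and 1.89 and 1.54 in the wild-type libraries.

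**Figure D3:**
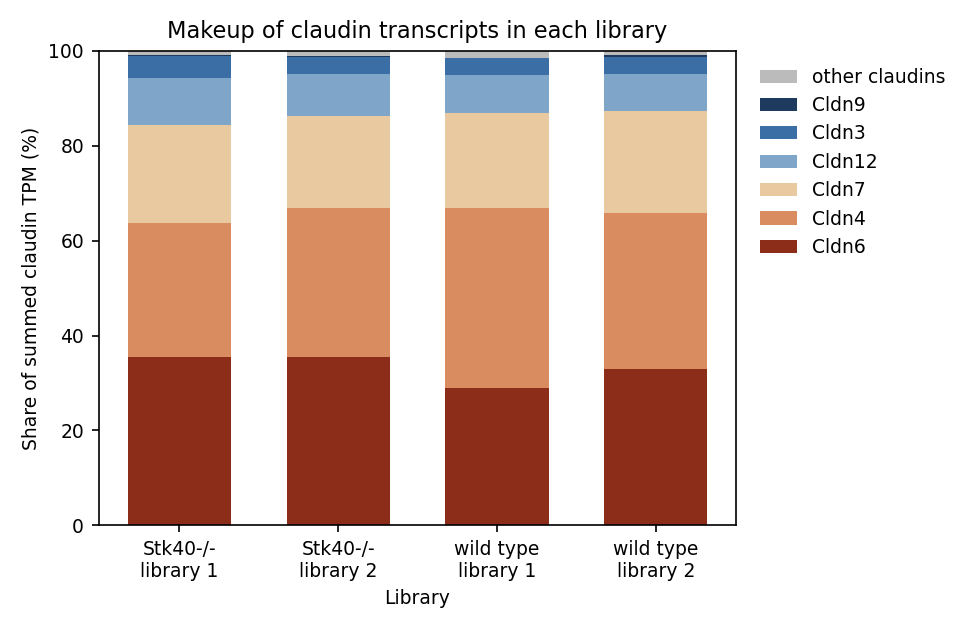
Share of the summed claudin TPM taken by each claudin in the 4 libraries, in percent. Cldn6 takes 35.5% and 35.4% in the Stk40-/- libraries and 28.9% and 32.9% in the wild-type libraries, and Cldn4 28.2% and 31.5% in the Stk40-/- libraries and 37.9% and 32.9% in the wild-type libraries.

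Ocln, which encodes occludin, a strand protein unrelated in sequence to claudins, had 22.2 and 21.2 TPM in the Stk40-/- libraries and 15.6 and 18.5 TPM in the wild-type libraries. The groups did not overlap, with a log2 fold change of 0.34 (SE 0.14, limma adjusted p = 0.494), between 0.22 and 0.45 over the alternatives run. F11r, whose product JAM-A recruits polarity proteins to the young junction, had 48.4 and 45.6 TPM in the Stk40-/- libraries and 48.7 and 44.1 TPM in the wild-type libraries. The Stk40-/- values lay between the wild-type ones, and the interval of its fold change on the TPM + 1 scale ran from 0.828 to 1.24 (limma adjusted p = 0.964).

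The scaffold genes Tjp1 and Tjp3 both had higher means in Stk40-/- cells, and a different library was the highest for each. Tjp1, whose product ZO-1 is also found at adherens junctions, had 119 and 83.9 TPM in the Stk40-/- libraries and 86.8 and 73.9 TPM in the wild-type libraries. Stk40-/- library 1 stood above the other 3 and the groups overlapped. Its log2 fold change was 0.31 (SE 0.20, limma adjusted p = 0.618), against 0.066 when that library was left out and 0.56 when Stk40-/- library 2 was. Leaving out wild-type library 2 gave 0.20. Tjp3 had 14.8 and 22.05 TPM in the Stk40-/- libraries and 12.6 and 14.0 TPM in the wild-type libraries. Here it was Stk40-/- library 2 that stood apart, and the log2 fold change of 0.42 (SE 0.23, limma adjusted p = 0.572) was 0.14 when it was left out and 0.69 when Stk40-/- library 1 was. Apba3, which overlaps Tjp3 by 40 bases, had 27.8 and 28.4 TPM in the Stk40-/- libraries and 37.3 and 30.4 TPM in the wild-type libraries. The part of this overlap in the Tjp3 values was not tested.

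The other genes of the tight junction were described from lists of the remaining claudins, membrane proteins, and plaque and scaffold proteins, and 0 of their 29 tested members were called. Of 18 other listed claudins in the table only Cldn12, Cldn1 and Cldn20 reached a mean of 1 TPM, and 5 (Cldn2, Cldn16, Cldn17, Cldn22 and Cldn24) were listed at 0 in all 4 libraries. Cldn12, a claudin without the usual binding motif for ZO proteins at its tail, had 69.4 and 62.1 TPM in the Stk40-/- libraries and 57.6 and 52.6 TPM in the wild-type libraries. Cldn12 thus lay between Tjp1 and F11r in level, and its groups did not overlap (log2 fold change 0.25, limma adjusted p = 0.502). Of 7 tested membrane proteins, Marveld3 and Jam3 were higher in value in both Stk40-/- libraries and 0 were lower in both, beside 27.5% and 16.6% of all tested genes, with a list median of 0.021. Jam3 averaged 29.9 ± 1.71 TPM in Stk40-/- cells and 25.6 ± 0.415 TPM in wild type (SD, n = 2 each), and Marveld3, a relative of occludin, averaged 12.5 ± 0.0862 TPM in Stk40-/- cells and 9.83 ± 1.91 TPM in wild type. Cxadr, which encodes the coxsackie and adenovirus receptor, and Jam2 overlapped between groups, with log2 fold changes of -0.11 and -0.16.

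Among plaque and scaffold proteins the Stk40-/- values were both above the wild-type ones in 10 of 19 tested genes and both below in 3 (Rab13, Magi3 and Amot, named after their values were seen). Over all tested genes those shares were the 27.5% and 16.6% given above, and the list median was 0.18 against 0.065. Ybx3, which encodes a Y-box protein that binds ZO-1, had 435 and 434 TPM in the Stk40-/- libraries and 336 and 331 TPM in the wild-type libraries (log2 fold change 0.38, limma adjusted p = 0.265). Cgn, which encodes the cytoplasmic plaque protein cingulin, had 44.8 and 39.7 TPM in the Stk40-/- libraries, against 33.8 and 31.6 TPM in the wild-type libraries. Magi1, a scaffold with several PDZ domains, averaged 39.3 ± 1.75 TPM in Stk40-/- cells and 29.4 ± 1.95 TPM in wild type, and Arhgef18, an exchange factor for RhoA at junctions, averaged 31.6 ± 2.13 TPM in Stk40-/- cells and 20.1 ± 0.503 TPM in wild type (SD, n = 2 each). These 4 were the only ones of the 19 at an unadjusted limma p under 0.05, and all were higher. Over all tested genes 6.48% were higher and 4.51% lower at that threshold. The limma adjusted p of the 4 ran from 0.265 to 0.436.

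**Figure D4:**
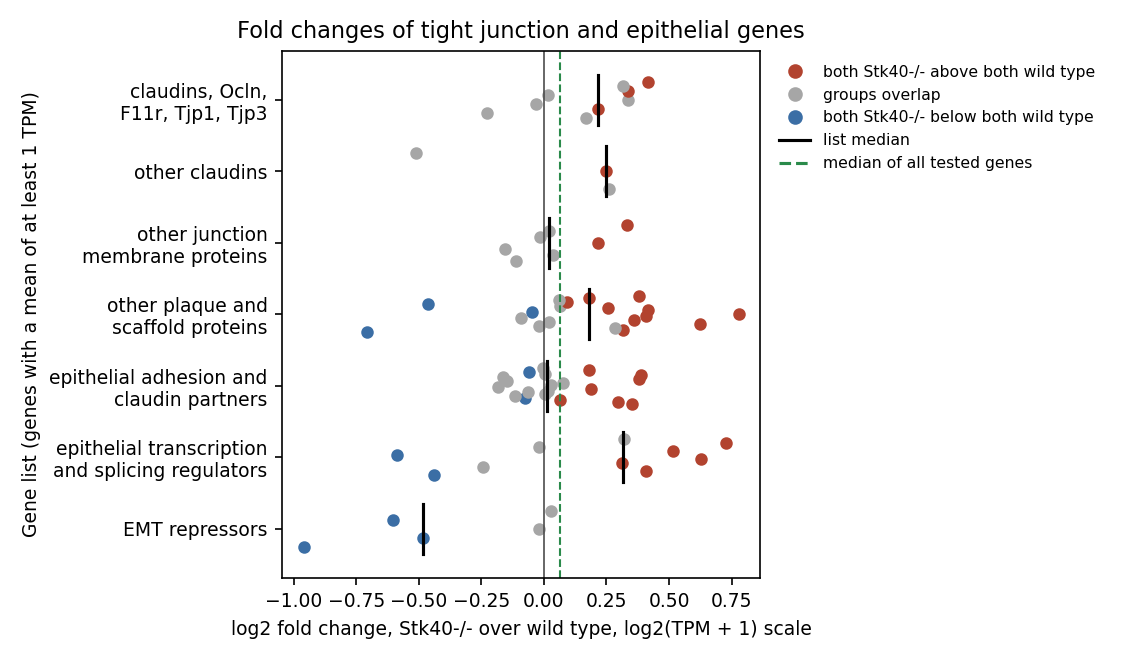
Log2 fold changes of Stk40-/- over wild type for the tested genes of each list, coloured by whether the groups overlapped, with the list median as a black bar and the median of all tested genes as a dashed line. The 9 genes have a median of 0.22, plaque and scaffold proteins 0.18 and epithelial regulators 0.32. The list labelled EMT repressors, transcription factors that repress epithelial genes, has a median of -0.48.

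Genes that work with claudins in epithelial adhesion and those that control epithelial identity were set beside them, and 0 of 35 tested genes in these 3 lists were called in limma. At an unadjusted p under 0.05, 2 of 20 adhesion genes and 2 of 10 regulators were higher and 1 regulator was lower, beside 6.48% higher and 4.51% lower over all tested genes. Among 20 adhesion and partner genes, 7 were higher in value in both Stk40-/- libraries and 2 lower in both (Spint2 and Ctnnb1, named after their values were seen), beside 27.5% and 16.6% of all tested genes, with a median of 0.012. Epcam, whose product binds claudin-7, had 306 and 314 TPM in the Stk40-/- libraries and 263 and 282 TPM in the wild-type libraries (limma adjusted p = 0.459). Cdh1, the E-cadherin gene, averaged 327 ± 3.25 TPM in Stk40-/- cells and 266 ± 3.38 TPM in wild type, and its groups did not overlap. Prss8, a membrane-bound protease of epithelia, averaged 41.7 ± 4.91 TPM in Stk40-/- cells and 31.5 ± 0.821 TPM in wild type, and Afdn, which encodes the junction protein afadin, 145 ± 19.03 TPM in Stk40-/- cells and 113 ± 13.7 TPM in wild type (SD, n = 2 each).

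Of 10 tested epithelial regulators, 5 were higher in value in both Stk40-/- libraries (Grhl2, Ovol2, Esrp1, Grhl1 and Klf4) and 2 lower in both (Elf3 and Grhl3), of which Grhl1, Klf4 and Grhl3 were named after their values were seen. The shares of all tested genes were again 27.5% higher and 16.6% lower. Grhl2, a transcription factor that activates claudin genes in mouse epithelia, had 11.1 and 12.1 TPM in the Stk40-/- libraries and 6.72 and 7.60 TPM in the wild-type libraries (log2 fold change 0.63, limma adjusted p = 0.401). Ovol2, a repressor of mesenchymal genes, averaged 10.99 ± 2.17 TPM in Stk40-/- cells and 6.27 ± 1.51 TPM in wild type, and the splicing factor gene Esrp1 averaged 53.8 ± 9.24 TPM in Stk40-/- cells and 40.1 ± 3.53 TPM in wild type (SD, n = 2 each). Elf3, an epithelial ETS factor, had a negative fold change, with 11.2 ± 0.911 TPM in Stk40-/- cells and 15.6 ± 0.0409 TPM in wild type. Transcription factors that repress epithelial genes were lower in value in both Stk40-/- libraries for 3 of 5 tested genes, Snai1, Twist1 and Zeb1, beside 16.6% of all tested genes. Snai1, which represses claudin and occludin genes in mouse epithelial cells, had 2.48 and 4.44 TPM in the Stk40-/- libraries and 10.5 and 5.25 TPM in the wild-type libraries (limma adjusted p = 0.502). Zeb2 overlapped, with 5.53 and 8.83 TPM in the Stk40-/- libraries and 7.88 and 5.97 TPM in the wild-type libraries. Wild-type library 1, which had the highest Cldn4, also had the highest Snai1. Whether these levels are linked was not tested.

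Promoters of some members are shown because repressors of the SNAI and ZEB families bind the E-box CAGGTG, and because AP-1, the factor that contains JUN, binds TGANTCA. Windows of 300 bases (250 before and 50 after each RefSeq transcription start, GRCm38.p6) were held for 8 of the 9 genes, 11 windows in all, with Cldn9 unmatched. Only windows of Cldn4, Cldn6, F11r and Ocln are printed, and each of those printed holds a match to the E-box. The other windows, among them that of Tjp1, which holds neither motif, are not printed. Matches to CAGGTG (or its reverse complement CACCTG) and TGANTCA (which reads alike on both strands apart from the middle base) are in capitals, and the motifs did not overlap.
Cldn4, chr5:134946885-134947184, minus strand: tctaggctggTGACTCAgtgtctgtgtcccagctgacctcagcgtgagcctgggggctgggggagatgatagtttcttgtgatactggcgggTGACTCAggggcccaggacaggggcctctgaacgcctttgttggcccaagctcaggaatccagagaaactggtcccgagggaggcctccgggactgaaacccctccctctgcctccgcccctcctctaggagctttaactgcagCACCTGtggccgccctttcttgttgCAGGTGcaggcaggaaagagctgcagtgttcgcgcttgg
Cldn6, chr17:23679115-23679414, plus strand: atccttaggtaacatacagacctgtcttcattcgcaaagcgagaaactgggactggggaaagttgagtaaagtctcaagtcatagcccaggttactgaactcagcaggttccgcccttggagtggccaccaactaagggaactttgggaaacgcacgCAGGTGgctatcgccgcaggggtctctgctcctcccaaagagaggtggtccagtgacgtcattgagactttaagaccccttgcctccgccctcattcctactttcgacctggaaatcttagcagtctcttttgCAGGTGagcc
F11r, chr1:171437311-171437610, plus strand: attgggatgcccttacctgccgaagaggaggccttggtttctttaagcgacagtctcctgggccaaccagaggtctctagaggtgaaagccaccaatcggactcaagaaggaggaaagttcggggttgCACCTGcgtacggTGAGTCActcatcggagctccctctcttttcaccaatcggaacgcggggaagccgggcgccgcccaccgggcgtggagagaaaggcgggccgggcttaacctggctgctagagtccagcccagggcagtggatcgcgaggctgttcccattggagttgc
Ocln, chr13:100552449-100552748, minus strand: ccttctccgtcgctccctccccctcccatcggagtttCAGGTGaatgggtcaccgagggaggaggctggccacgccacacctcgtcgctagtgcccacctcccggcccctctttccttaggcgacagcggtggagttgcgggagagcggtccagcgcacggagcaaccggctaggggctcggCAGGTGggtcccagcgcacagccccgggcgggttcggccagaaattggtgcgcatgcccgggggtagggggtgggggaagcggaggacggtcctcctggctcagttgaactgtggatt

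CAGGTG was found for 7 of the 8 genes with a window, all but Tjp1, and for 22.6% of all 27025 genes with a window. It was found for 1 of 15 other claudins, 4 of 4 other junction membrane genes and 7 of 17 plaque and scaffold genes. The motif was also found for 4 of 11 adhesion and partner genes, 3 of 7 epithelial regulators and 1 of 4 EMT repressors. A gene counted if any of its windows held a match, so genes with several windows had more chances. Counted from the transcription start, the first bases of CAGGTG matches lay at -14 and 12 in Cldn4 and at -93 and 41 in Cldn6. The windows of these genes held 45.3% to 68.0% G and C, with a median of 52.7% over all windows, and 3 matches (in Cldn6, Cldn7 and Ocln) coincided with an annotated exon end, where the same letters form a common splice donor. TGANTCA was found for 2 of the 8, F11r with 1 match and Cldn4 with 2, at -240 and -158, and for 8.97% of all genes. A window with at least 2 such matches made up 0.46% of all 32851 windows. AACNGGTT, close to the site of grainyhead factors and searched on both strands, was found for 0 of the 8 and 2.35% of all genes. These are matches of letters and not measured binding. Cldn4 and F11r, the genes with TGANTCA, had log2 fold changes of -0.23 and 0.018, and neither was called in limma. The part of AP-1 in these values was not tested.

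Across the 4 libraries, the genes whose log2 levels were most alike those of Cldn6, the member with the highest mean, were Dclk2, Nfatc3, Wasf3, Rbpms2 and Alg10b, with Pearson r from 0.999847 to 0.999974. Each had nearly equal Stk40-/- libraries above both wild-type ones, such as Rbpms2 with 158 and 159 TPM in the Stk40-/- libraries and 112 and 125 TPM in the wild-type libraries. With 4 libraries, 161 of the 10889 genes compared had an r over 0.99, so the likeness is a description of these libraries.

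Markers of other cells that carry tight junctions, or that lack them, were read from the same libraries, and 0 of them were called in limma. At an unadjusted p under 0.05, 3 trophoblast, 3 feeder and 5 nascent mesoderm markers were lower and 4 pluripotent or epiblast markers were higher, beside 4.51% lower and 6.48% higher over all tested genes. The counts below of markers lower or higher in both Stk40-/- libraries stand beside 16.6% lower and 27.5% higher over all tested genes. Trophoblast markers summed to 610 to 758 TPM in the Stk40-/- libraries and 844 to 1245 TPM in the wild-type libraries, mostly from the simple epithelial keratin genes Krt8 and Krt18, with 4 of 8 tested genes lower in value in both Stk40-/- libraries. Of the trophoblast markers, Elf5 and Gata3 had means of 0.082 and 0.71 TPM over all libraries. Tfap2c had a log2 fold change of 0.32, whereas 7 of the 8 were negative. The most negative was Cdx2, at 1.46 and 0.904 TPM in the Stk40-/- libraries and 11.1 and 9.03 TPM in the wild-type libraries. Its log2 fold change was -2.35 (limma adjusted p = 0.233). Extraembryonic endoderm markers summed to 10.6 to 12.3 TPM in the Stk40-/- libraries and 10.1 to 14.5 TPM in the wild-type libraries, with 3 of 12 (Ttr, Apoa1 and Hnf4a) listed at 0 throughout. Surface ectoderm markers summed to 3.66 to 3.84 TPM in the Stk40-/- libraries and 4.75 to 6.03 TPM in the wild-type libraries, and endothelial markers to 3.87 to 6.73 TPM in the Stk40-/- libraries and 5.52 to 8.33 TPM in the wild-type libraries. Nascent mesoderm markers, which check the labelled mesoderm-like state, summed to 298 to 451 TPM in the Stk40-/- libraries and 715 to 1362 TPM in the wild-type libraries, with 5 of 5 tested genes lower in value in both Stk40-/- libraries, wild-type library 1 the highest in T (1025 TPM) and Mesp1, Tbx6, Kdr and Pdgfra below a mean of 1 TPM. Pluripotent and epiblast markers summed to 1081 to 1140 TPM in the Stk40-/- libraries and 743 to 958 TPM in the wild-type libraries, with 5 of 8 higher in both Stk40-/- libraries. Feeder fibroblast markers summed to 295 to 304 TPM in the Stk40-/- libraries and 405 to 423 TPM in the wild-type libraries, with 6 of 7 tested genes lower in both Stk40-/- libraries and Tagln, also a gene of other mesenchymal cells, making up most of the sum. The part of these cell markers in the claudin values was not tested, and in bulk samples fewer cells of a type and less RNA per cell cannot be told apart.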

How the data were processed

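RNA sequencing values were used from 2 Stk40-/- and 2 wild-type libraries, grouped and numbered by their titles. Per the labels, polyadenylated RNA was read in pairs of 100 bases or of 150 bases on another instrument, with no statement of which for each library, so no batch term could be fitted. The authors deposited TPM per gene, per the file headers. Per the submitters' processing notes the tools were CASAVA 1.7 and Salmon 0.8.2 and the build hg38, although the gene IDs are those of mouse, and the annotation remains not given in the sources used here. No depth is kept in TPM, and Salmon divides reads among like transcripts. There were 0 per-sample columns left unused.

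The 15739 genes that averaged 1 TPM or more entered the test on log2(TPM + 1), a scale that understates changes of low genes, with limma 3.58.1 in R 4.3.3, empirical Bayes moderation with an intensity trend, and Benjamini-Hochberg adjustment at 0.05. The procedure was also run on simulated data in which spreads were shuffled among genes. That run does not show how many true changes the test would miss in these libraries. Positions and transcripts came from GENCODE vM21 (GRCm38), matched by gene ID without its version (the versions of Cldn6 and Cldn9 differ), promoter windows from RefSeq (GRCm38.p6). Coding sequences were aligned globally with Biopython 1.88. The genes and lists were chosen with earlier results of these data known. Named were the 9 genes and, outside the marker lists, up to 4 tested genes per list with the smallest unadjusted p. Also named were the 5 genes most correlated with the most abundant member at a mean of at least 5 TPM. Other genes, among them the cell markers, were not named by p, and several markers with a smaller p go unnamed. Alternatives were pseudocounts of 0.1 and 0.01, filters at a mean above 0 and of at least 5 TPM, 2 rescalings, no trend, a replicate block, and each library left out.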

Additional observations from a re-analysis of the deposited data

How the results depend on the processing

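In limma under each of the 12 alternatives 0 genes of the table, and 0 of the 9, were called higher or lower, and between 985 and 2229 genes of the table had an unadjusted p under 0.05. Cldn6, Cldn4, Ocln, Tjp1 and Tjp3 kept their direction under each of them, and with pseudocounts of 0.1 and 0.01 so did every gene, although Cldn9 reached 0.78 and 0.91 against 0.34. With library sizes rescaled by a trimmed mean of log ratios, which moved the median of all tested genes to 0.0066, the log2 fold change of F11r was -0.044. With 1 library left out at a time, values spanned 0 for F11r (-0.052 to 0.088), Cldn3 (-0.019 to 0.36), Cldn7 (-0.081 to 0.016) and Cldn9 (-0.27 to 0.94), whereas Tjp1 ran from 0.066 to 0.56, Tjp3 from 0.14 to 0.69 and Cldn4 from -0.38 to -0.076, and the median of the 9 genes from 0.066 to 0.21. With a mean of at least 5 TPM, Cldn9 could not be tested. The causes of these shifts were not tested. Same-numbered libraries deviated together only weakly (r = 0.089 over tested genes). That correlation cannot show whether they share more than a number. With the replicate block 0 genes were called. The block cannot alter a fold change in this balanced design, and for Cldn6, at 0.22, the limma adjusted p was 0.354. With the block the SE of Tjp1 was 0.11, against 0.20 without it, and that of Tjp3 0.17, against 0.23. Those of Cldn4, Cldn9 and Ocln were larger with the block. TPM carries no depth, so what depth limits cannot be read from these values.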
